A study of Mus musculus with 2 samples.

Results

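Plvap-positive capillary cells that carry Esm1 were 162 of the 7328 cell barcodes in 2 single-cell RNA libraries of mouse ileal endothelium. They were chosen by their own measured RNA counts. Cells were kept from 500 detected genes upwards and up to 15% mitochondrial UMIs (unique molecular identifiers, each standing for 1 captured RNA molecule). A gated cell had at least 5 UMIs of Flt1, Cd34, Plvap and Esam together, at most 2 of the lymphatic genes Mmrn1, Lyve1, Reln and Prox1, at most 1 of the venous genes Ackr1, Selp and Madcam1, and at most 1 of the arterial genes Sema3g, Fbln5, Stmn2, Gja5 and Bmx. Plvap had to exceed Gpihbp1 plus Aqp1, and Adamts4 plus Bcr was limited to 1 UMI. These gates left 108 cells in library 1 and 563 in library 2. Cells with at least 2 Esm1 UMIs are called Esm1 cells below, 18 in library 1 and 144 in library 2, and were set against the 72 and 331 gated cells without an Esm1 UMI, called Esm1-zero cells. Between them lay 18 and 88 gated cells with exactly 1 Esm1 UMI.

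Both libraries came from wild-type male C57Bl/6 mice aged 8 weeks, with no treatment, and identical labels put them in 1 group of 2. Endothelial cells of the ileum, the last stretch of the small intestine, were sorted as CD31-positive cells lacking EpCAM and CD45, with PDPN separating blood from lymphatic endothelium. No label ties a cell to a sort gate or states if the mice behind the libraries were different. The tests fitted library as a block, so p-values measure the spread left among counts summed per library and class. That spread may be technical, and for the median gene it was shared across genes. A small p-value is therefore no measure of how closely the libraries agree on a gene. Where classes are said not to overlap, no share of such genes over all genes tested is given. Library 1 held 1026 barcodes and 3806199 UMIs and library 2 held 6302 barcodes and 26645476 UMIs. The libraries shared 2 barcodes, of which 0 were Esm1 cells. The Esm1 cells of library 1 summed to 62819 UMIs and those of library 2 to 662877, so values from library 1 carry the larger counting error.

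Esm1 encodes endocan, a proteoglycan that endothelial cells secrete. VEGF signalling through the receptor encoded by Kdr is known to induce it, and it is used as a marker of the tip cells that lead new vessel sprouts. Tip cells are also known for Apln, Angpt2, Cxcr4, Pdgfb and Dll4, and Notch signalling started by Dll4 restrains the tip state in neighbouring cells. Plvap forms the diaphragms of fenestrae and caveolae, and intestinal capillaries are known for such fenestrae.

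The Esm1 level of the Esm1 cells was set by the rule and is given as a description. It was 1449 and 931 CPM (a gene's UMIs scaled to a common total of 1000000 UMIs per class) in libraries 1 and 2, with 2 to 18 UMIs per cell in library 1, 2 to 24 in library 2 and a median of 3 in each. Just inside the limit, 7 and 51 cells had exactly 2 UMIs, with median totals of 2646 and 3900.0 UMIs per cell. Just outside it, the cells with 1 Esm1 UMI had median totals of 3547 and 3792.5. Esm1 cells made up 16.7% of the gated cells in library 1 (exact 95% binomial interval 10.2 to 25.1) and 25.6% in library 2 (22.0 to 29.4). Depth bears on this share, since the median total was 3244.5 and 4377.5 UMIs in Esm1 cells and 2509 and 3207 in Esm1-zero cells. With cells thinned to 2000 UMIs, which leaves out 34 gated cells of library 1 and 85 of library 2 that had fewer, the share was 10.8% of 74 cells and 13.8% of 478.

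The Esm1 gene lies on the plus strand of chromosome 13 at 113209659 to 113218098 (GENCODE vM21 on GRCm38). The 250 bases before its start in RefSeq (GRCm38.p6, chr13:113209409-113209658) are shown because Esm1 defines these cells. Capitals mark the letters CAGGAA read on the opposite strand, a core of sites known to be bound by ETS factors, which act at many endothelial genes.
Esm1: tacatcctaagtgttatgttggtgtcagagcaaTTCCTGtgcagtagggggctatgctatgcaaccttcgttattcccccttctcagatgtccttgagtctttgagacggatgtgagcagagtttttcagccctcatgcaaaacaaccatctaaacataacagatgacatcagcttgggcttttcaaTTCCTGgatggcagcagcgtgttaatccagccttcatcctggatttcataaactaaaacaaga
The window held 2 matches, whose first letters lay 217 and 63 bases before the start. CAGGAA on either strand occurred in 25.7% of the 32851 RefSeq promoter windows of the same length.

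Esm1 was not particular to the gate. Of all kept cells, 100 in library 1 and 750 in library 2 had at least 2 Esm1 UMIs, and 46 and 415 of these were capillary cells with at least 2 UMIs of Adamts4 plus Bcr that met the other gates, called Adamts4/Bcr cells below. Adamts4 encodes a matrix protease. A further 17 and 94 were arterial cells and 3 and 19 were capillary cells in which Gpihbp1 plus Aqp1 exceeded Plvap, called Gpihbp1/Aqp1 cells. Gpihbp1 anchors lipoprotein lipase in capillaries and Aqp1 is a water channel. Of the remaining kept cells, 0 and 5 were venous, 0 and 10 lymphatic, and 16 and 63 fell in no class used here. The gated Esm1 cells held 16.3% and 15.8% of all Esm1 UMIs in kept cells.

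Free RNA gives UMIs in cells that do not express a gene, so shares of cells with Esm1 were set beside lymphatic cells. At least 1 Esm1 UMI was found in 1.20% of 83 lymphatic cells of library 1 and 2.86% of 1084 in library 2, at median totals of 2854 and 2269 UMIs. The share was 42.0% and 47.2% in Adamts4/Bcr cells, at 4136 and 4390.5 UMIs, and 21.5% and 19.7% in arterial cells, at 3626 and 4499.5 UMIs. It was 4.76% and 5.60% in Gpihbp1/Aqp1 cells. None of 52 venous cells of library 1 had an Esm1 UMI, which allows a share of up to 5.77% by a limit of 3 counts and 6.85% by the exact 95% interval, and 5.15% of 194 did in library 2. At 2000 UMIs per cell, shallower cells left out, the share was 32.4% and 33.1% in Adamts4/Bcr cells, 15.5% and 12.5% in arterial cells, 4.38% and 3.63% in Gpihbp1/Aqp1 cells, and 0 and 2.40% in lymphatic cells. Intervals and limits cover counting error only.

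**Figure D1:**
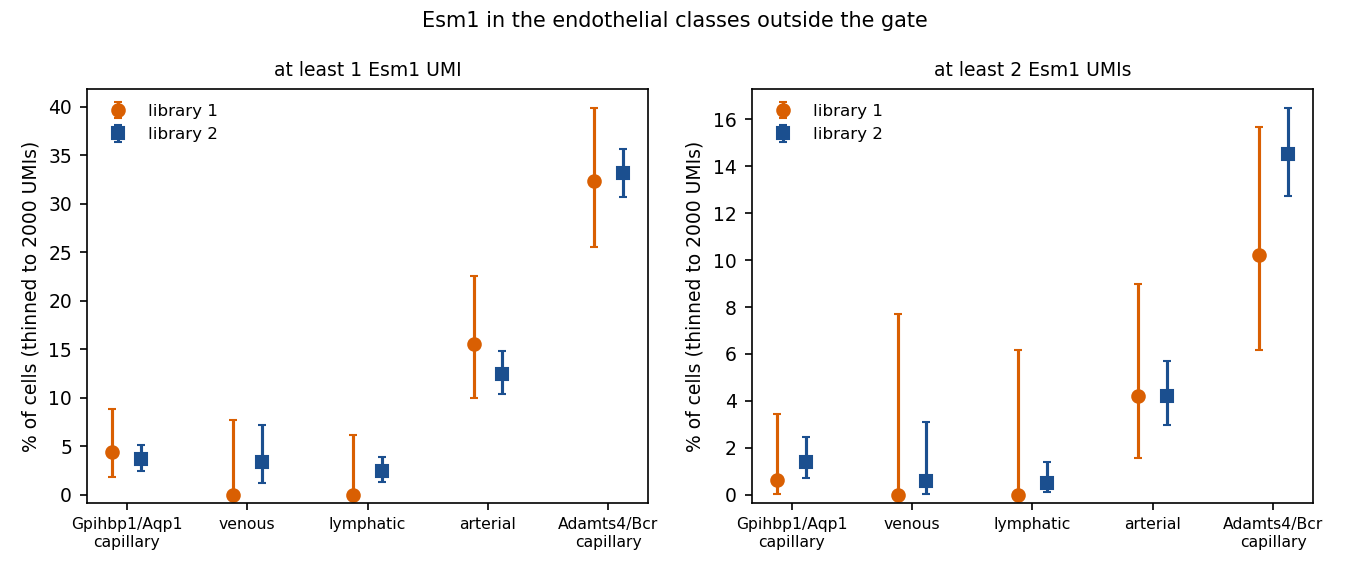
Share of cells with at least 1 (left) or at least 2 (right) Esm1 UMIs after thinning to 2000 UMIs per cell, with shallower cells left out (460 of the 1084 lymphatic cells of library 2), in percent, by class and library; bars are exact 95% binomial intervals. Adamts4/Bcr capillary cells stand highest at 32.4% and 33.1% (left), followed by arterial cells at 15.5% and 12.5%.

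The other markers of the name were proposed with results of these data known, so their values describe the cells and are no independent check. Plvap is no check either, since the gates fix its order between the classes, and it is given only as a level, 4585 and 5248 CPM in Esm1 cells and 259 and 393 CPM in Gpihbp1/Aqp1 cells. Col13a1, a transmembrane collagen, was at 239 and 311 CPM against 4.98 and 16.3 CPM in Gpihbp1/Aqp1 cells, a fitted log2 difference of 4.39 ± 0.23 (SE, n = 2 libraries, edgeR adjusted p = 3.0e-76). Col15a1, a basement membrane collagen, was at 1146 and 727 CPM against 64.8 and 74.8 CPM (log2 3.49 ± 0.17, adjusted p = 7.9e-90). Nrp1, a co-receptor for VEGF, was at 2404 and 2374 CPM against 1311 and 1277 CPM (log2 0.85 ± 0.13, adjusted p = 6.6e-09). All 3 genes rose against Gpihbp1/Aqp1 cells, with no overlap between libraries, where 6.5% of all genes tested rose. None of the 3 passed against Adamts4/Bcr cells (edgeR adjusted p = 0.082, 0.61 and 0.30). There Col13a1 was higher than in Esm1 cells, at 396 and 348 CPM, while Col15a1 was at 700 and 642 CPM and Nrp1 at 1720 and 1790 CPM.

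These 3 markers did not pass the test against Esm1-zero cells. Col13a1 was at 362 and 269 CPM in Esm1-zero cells (log2 0.02 ± 0.18, adjusted p = 1). Col15a1 was at 1000.3 and 693 CPM there (log2 0.04 ± 0.15, adjusted p = 0.99). Nrp1 was at 1832 and 1695 CPM there (log2 0.39 ± 0.13, adjusted p = 0.16). For Col13a1 and Col15a1 the libraries overlapped, while both Esm1 libraries lay above both Esm1-zero libraries for Nrp1.

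Markers of other cell types were low in the Esm1 cells. The 8 pericyte markers summed to 79.6 and 60.3 CPM, against 84.5 and 138 in Esm1-zero cells, with Pdgfrb and Cspg4 at 0 UMIs in both libraries. The 7 fibroblast markers summed to 15.9 and 40.7 CPM, the 6 leukocyte markers to 0 and 4.53 CPM with Ptprc at 0, and the 7 epithelial markers to 0 and 16.6 CPM with Epcam at 0. The 6 lymphatic markers summed to 0 and 16.6 CPM, with Pdpn at 0. The 4 haemoglobin genes summed to 0 and 219 CPM, and all of it came from 1 cell of library 2.

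Against Esm1-zero cells, a small set of genes differed. By edgeR's quasi-likelihood test, 89 of 8572 genes passed at an adjusted p of 0.05 (1.04%), 48 higher (0.56%) and 41 lower (0.478%) in Esm1 cells, and 670 had an unadjusted p under 0.05. The 48 include the 4 haemoglobin genes (Hba-a1, Hba-a2, Hbb-bs and Hbb-bt, near-identical in pairs), whose UMIs in Esm1 cells all lay in 1 cell, and without cells of over 1% haemoglobin UMIs 84 genes passed. The direction was the same in both libraries for 73 of the 89 (82.0%), against 52.4% of all genes tested. DESeq2 called 14 (0.163%), and all 14 were among the 89 with the same sign. By that test 8 rose (0.0933%), among them Hbegf, Fam167b, Rsad2, Akr1c14, Fam198b, Sept4 and Clec2d, and 6 fell (0.07%), Slc6a6, Myof, Itgb4, Apold1, Fbln2 and Ybx1. In cells of 2500 to 8000 UMIs, a window that narrows the depth gap, edgeR called 62 genes, of which 55 were shared with the same sign. Among the named genes shown here, 9 of 11 that rose and 8 of 12 that fell still passed there, and Dmd, Ifi44, Adgre5, Ext1, St8sia6 and Syt7 did not. Of the list genes described below, Ehd4 (adjusted p = 0.11), Nos3 (0.091), Lpl (0.13) and Vcam1 (0.08) did not pass there either, and Apln and Fn1 were too low to fit.

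The named genes that rose span several functions. Hbegf, a growth factor of the EGF family, was at 111 and 222 CPM in Esm1 cells of libraries 1 and 2 and 42.3 and 40.2 CPM in Esm1-zero cells. Both Esm1 libraries lay above both Esm1-zero libraries, by a log2 difference of 2.33 ± 0.25 (SE, n = 2 libraries, edgeR adjusted p = 5.9e-17). In library 1 the Hbegf value rests on 7 UMIs in 3 Esm1 cells, and 1 cell held 24 of the 154 UMIs of both libraries. Gpihbp1/Aqp1 cells held Hbegf at 133 and 145 CPM. Fam167b, a small protein of the FAM167 family, was at 175 and 235 CPM against 65.7 and 66.7 CPM (log2 1.75 ± 0.23, adjusted p = 1.3e-11). It had a UMI in 80 Esm1 cells (5 of them in library 1) and 64 Esm1-zero cells. Akr1c14, an aldo-keto reductase of steroid metabolism, was at 127 and 93.5 CPM against 37.6 and 32.0 CPM (log2 1.55 ± 0.31, adjusted p = 1.6e-04). Fam198b, a Golgi membrane protein, was at 207 and 190.1 CPM against 98.6 and 79.4 CPM (log2 1.19 ± 0.23, adjusted p = 6.2e-05). In all 3 genes both Esm1 libraries lay above both Esm1-zero libraries. Slc16a1, the lactate transporter MCT1, was at 127 and 223 CPM against 47.0 and 107 CPM (log2 1.13 ± 0.22, adjusted p = 6.9e-05), again without overlap. Gpihbp1/Aqp1 cells held more Fam198b than Esm1 cells, at 244 and 244 CPM, but less Fam167b and Akr1c14. Itih5, a secreted hyaluronan-binding protein, rose by 1.56 on the log2 scale, Efhd1, a mitochondrial calcium sensor, by 1.40, and Dmd, dystrophin, by 1.40 (adjusted p = 3.4e-04, 0.0062 and 0.0499). In library 1 the 13 Itih5 UMIs of the Esm1 cells lay in 2 cells, 12 of them in 1 cell.

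Some interferon-stimulated genes were among the risers. Rsad2, the antiviral enzyme viperin, was at 429.8 and 181 CPM against 108 and 58.4 CPM (log2 1.65 ± 0.23, adjusted p = 9.4e-10). Ifit1, which binds foreign RNA caps and has near-identical family members that can share reads, was at 271 and 64.9 CPM against 56.4 and 18.3 CPM (log2 1.78 ± 0.34, adjusted p = 1.2e-04). Ifi44, an interferon-induced gene, was at 159 and 99.6 CPM against 89.2 and 41.1 CPM (log2 1.12 ± 0.28, adjusted p = 0.0083). Each was higher in library 1 than in library 2 within both classes. Gpihbp1/Aqp1 cells held Ifit1 at 99.7 and 118 CPM and Ifi44 at 121 and 94.8 CPM. The wider list of 24 interferon and antigen presentation genes gave 1 gene that rose and 0 that fell of 21 tested, where 0.56% of all genes rose. This list had a median log2 difference of 0.05 against -0.02 over all genes tested. Within it, Isg15 was at 143 and 305 CPM against 254 and 212 CPM (log2 0.27 ± 0.19, adjusted p = 0.83). Rsad2 UMIs were found in 36 Esm1 cells and Ifit1 UMIs in 20, so these levels rest on a minority of the 162. In library 1, Ifit1 rests on 17 UMIs in 2 Esm1 cells and 12 UMIs in 3 Esm1-zero cells.

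The 250 bases before the RefSeq start of Rsad2 (chr12:26456453-26456702, minus strand) and of Ifit1 (chr19:34640639-34640888, plus strand, GRCm38.p6) are shown because both genes rose. Capitals mark the letters GAAA, any 2 bases and GAAA again, read on the opposite strand, the core of the interferon-stimulated response element. The motif was chosen after the values were seen.
Rsad2: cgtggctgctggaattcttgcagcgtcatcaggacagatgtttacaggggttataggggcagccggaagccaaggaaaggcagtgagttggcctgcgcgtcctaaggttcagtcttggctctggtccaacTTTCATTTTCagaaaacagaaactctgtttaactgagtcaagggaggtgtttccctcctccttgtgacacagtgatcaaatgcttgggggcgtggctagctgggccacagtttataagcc
Ifit1: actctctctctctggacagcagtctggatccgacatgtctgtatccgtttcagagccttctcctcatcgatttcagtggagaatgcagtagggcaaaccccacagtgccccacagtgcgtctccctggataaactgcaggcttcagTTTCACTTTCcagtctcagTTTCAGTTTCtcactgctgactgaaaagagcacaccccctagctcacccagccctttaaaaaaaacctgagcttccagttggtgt
Rsad2 held 1 match, 120 bases before its start, and Ifit1 held 2, at 104 and 85 bases. The motif on either strand occurred in 2.98% of the 32851 windows. The Ifit1 start in RefSeq lies 18 bases downstream of the GENCODE start.

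Genes that fell also came from several groups. Slc6a6, the taurine transporter, was at 0 and 72.4 CPM against 188 and 264 CPM (log2 -1.98 ± 0.24, adjusted p = 6.1e-13), with 0 UMIs in the 18 Esm1 cells of library 1. Myof, a membrane repair protein, was at 31.8 and 27.2 CPM against 103 and 102 CPM (log2 -1.89 ± 0.34, adjusted p = 1.0e-05). Itgb4, the laminin-binding integrin subunit β4, was at 47.8 and 66.4 CPM against 235 and 149.7 CPM (log2 -1.37 ± 0.25, adjusted p = 3.0e-05). None of these overlapped between classes. Cmah, which makes N-glycolylneuraminic acid, was at 63.7 and 93.5 CPM against 315 and 210.0 CPM (log2 -1.33 ± 0.22, adjusted p = 1.9e-06). Apold1, an endothelial immediate early gene, was at 95.5 and 335 CPM against 564 and 612 CPM (log2 -1.06 ± 0.17, adjusted p = 1.0e-06). Vwf, the von Willebrand factor of larger vessels and especially veins, was at 223 and 107 CPM against 291 and 207 CPM (log2 -0.92 ± 0.21, adjusted p = 0.0045), and here library 1 of the Esm1 cells lay above library 2 of the Esm1-zero cells. The other named genes that fell were Syt7, Ext1, St8sia6, Adgre5, Zfp36 and Arrb1, by log2 differences from -1.65 (Syt7) to -0.90 (Arrb1).

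**Figure D2:**
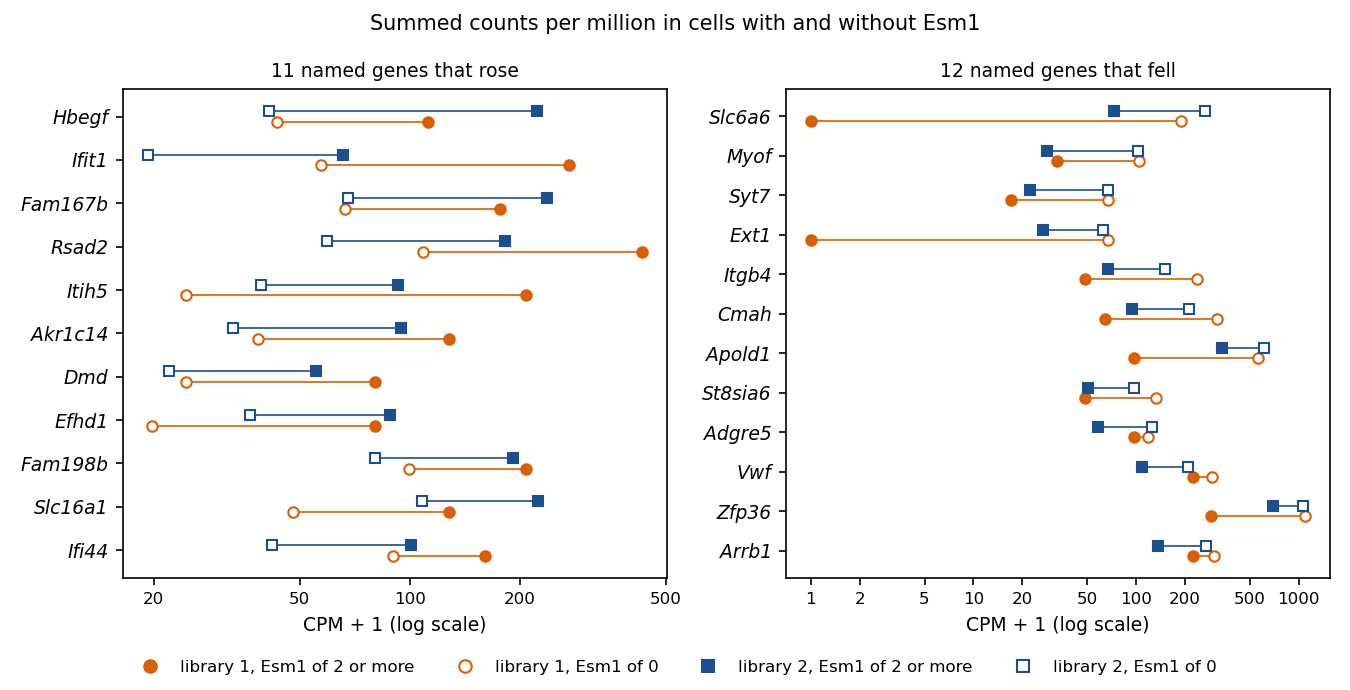
Summed CPM plus 1 (log axis) of 11 named genes that rose (left) and 12 that fell (right) in Esm1 cells (filled) and Esm1-zero cells (open), by library. In each gene the filled marker lies on the same side of the open one in both libraries, as the naming rule required, and Slc6a6 and Ext1 sit at 0 CPM in the Esm1 cells of library 1.

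Of the 27 sprouting and tip cell genes tested, 2 rose and 0 fell (2 of the 29 listed, Kcne3 and Pgf, were too low to test), with a median log2 difference of 0.25 against -0.02 over all genes. Of all genes tested, 0.56% rose and 0.478% fell. Kdr, the main VEGF receptor, was at 2865 and 2195 CPM in Esm1 cells and 1475 and 1775 CPM in Esm1-zero cells, with no overlap (log2 0.51 ± 0.14, adjusted p = 0.021). Apln, the apelin ligand, passed at log2 3.31 ± 0.54 (adjusted p = 1.0e-06), but its 0 and 70.9 CPM came from 4 cells of library 2, 1 of which held 57.4% of the UMIs. In Esm1-zero cells it was at 9.39 and 5.48 CPM (2 and 6 UMIs), so library 1 gives no direction at this depth.

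The other tip cell genes did not pass. Pdgfb, which recruits pericytes, was at 271 and 359 CPM against 178 and 252 CPM (log2 0.53 ± 0.18, adjusted p = 0.16), and Dll4, the Notch ligand, at 318 and 217 CPM against 127 and 167 CPM (log2 0.55 ± 0.20, adjusted p = 0.24). Ednrb, an endothelin receptor, was at 271 and 178 CPM against 122 and 117 CPM (log2 0.69 ± 0.21, adjusted p = 0.088). Cxcr4, a chemokine receptor, was at 63.7 and 34.7 CPM against 37.6 and 21.9 CPM (adjusted p = 0.84), and Angpt2, a Tie2 ligand, at 0 and 16.6 CPM against 4.70 and 8.22 CPM (adjusted p = 0.83). Kcne3, a potassium channel subunit, and Pgf, placental growth factor, had 0 UMIs in all 162 Esm1 cells.

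The list of VEGF ligands, receptors and co-receptors held 1 call of 7 tested, Kdr. The angiopoietin, Tie and apelin list also held 1 of 7, Apln. Other lists tied to these pathways held no call, where 1.04% of all genes tested were called, so 0 is close to that share for lists of this size. In each of the VEGF and ERK response list (12 tested), the Notch list (14), the hypoxia list (15), the BMP and TGF-beta list (17) and the proliferation list (8), 0 genes rose and 0 fell. Their median log2 differences were 0.04, -0.19, -0.03, -0.04 and -0.24. Mki67, a marker of dividing cells, had 0 UMIs in the Esm1 cells. Jag1, a Notch ligand, was the nearest to passing that is described here, at 79.6 and 51.3 CPM against 117 and 105 CPM (log2 -0.96 ± 0.28, adjusted p = 0.061).

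Secreted regulators and matrix genes gave single calls, where 0.56% of all genes tested rose and 0.478% fell. Dkk2, a Wnt pathway modulator, was at 47.8 and 51.3 CPM against 0 and 3.65 CPM (log2 4.05 ± 0.69, adjusted p = 2.2e-06). It had a UMI in 16 Esm1 cells and 4 Esm1-zero cells, and it was the 1 gene called of 7 tested in the Wnt list. Its value in the Esm1 cells of library 1 is 3 UMIs in 1 cell, and arterial cells held more Dkk2, at 113 and 81.6 CPM. Adamts5, a matrix protease that cleaves aggrecan, was at 0 and 87.5 CPM against 9.39 and 5.48 CPM (log2 3.57 ± 0.50, adjusted p = 1.4e-09) and all of it in 24 cells of library 2. Library 1, with 0 against 2 UMIs, again gives no direction. Igfbp5, an IGF-binding protein, was at 143 and 385 CPM against 0 and 23.7 CPM and missed the threshold (log2 4.12 ± 0.69, adjusted p = 0.069). It passed in cells of 2500 to 8000 UMIs, at log2 3.88 ± 0.30 (adjusted p = 5.7e-27). Of its 264 UMIs in Esm1 cells 23.9% came from 1 cell, and of its 26 in Esm1-zero cells 42.3% came from 1 cell. Its value in the Esm1 cells of library 1 is 9 UMIs in 2 cells, and lymphatic cells held more Igfbp5, at 1053 and 1047 CPM. Igfbp4, another IGF-binding protein, fell from 953 and 901 CPM to 429.8 and 566 CPM (log2 -0.81 ± 0.16, adjusted p = 1.3e-04). Ehd4, an endocytic ATPase, rose by 0.59 on the log2 scale (adjusted p = 0.0063), the 1 call among 9 fenestral diaphragm and caveolae genes tested. Of 22 collagen and basement membrane genes, Fn1 alone fell, and 17 of the 22 had a positive difference (median log2 0.14), beside 48.3% of all genes tested.

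Genes of other vessel segments gave calls in the lower direction only. Of 10 venous genes tested, 3 fell (Nr2f2, Vwf and Vcam1) and 0 rose, with a median log2 difference of -0.36, and of 16 arterial genes Fn1 alone fell, with a median of -0.18. Of all genes tested, 0.478% fell, and the median was -0.02. Nr2f2, the venous transcription factor COUP-TFII, was at 0 and 6.03 CPM against 14.1 and 32.9 CPM (log2 -2.44 ± 0.67, adjusted p = 0.032). Cldn5, a tight junction claudin, was at 0 and 13.6 CPM against 23.5 and 57.5 CPM (log2 -2.01 ± 0.52, adjusted p = 0.027). Nr2f2 and Cldn5 were sparse, with 4 and 9 UMIs in all Esm1 cells, and 33.8% of the Cldn5 UMIs of the Esm1-zero cells came from 1 cell. Meox2, a homeobox factor, and Lpl, lipoprotein lipase, both in the list of capillary lipid handling genes, had 0 UMIs in Esm1 cells and were at least 4.62-fold and 3.70-fold lower than in Esm1-zero cells, taking 3 counts over the class as the floor. Of 403 Esm1-zero cells, 19 held Meox2 (1 of them in library 1) and 9 held Lpl (2 in library 1), with 35% of the Lpl UMIs in 1 cell. Such bounds count UMIs and take no account of their grouping in few cells. Fn1 and Vcam1 also had 0 UMIs in Esm1 cells, with bounds of 4.44-fold and 3.33-fold. Both were also at 0 in the Esm1-zero cells of library 1, so these rest on library 2 alone, and 61.1% of the Vcam1 UMIs of the Esm1-zero cells came from 1 cell. Nos3, endothelial nitric oxide synthase, was at 95.5 and 98.1 CPM against 131 and 185 CPM without overlap (log2 -0.87 ± 0.23, adjusted p = 0.024).

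Immediate early and heat shock genes, which are known to be induced by tissue dissociation as well as by signalling, stood lower in Esm1 cells. All 19 genes tested had a negative difference (median log2 -0.49), and 2 of them passed. Of all genes tested, 48.3% had a positive difference and 0.478% passed as lower. Jund, an AP-1 subunit, was at 398 and 1026 CPM against 1104 and 1367 CPM (log2 -0.67 ± 0.15, adjusted p = 0.0023), and Zfp36, which destabilises messenger RNA, at 287 and 698 CPM against 1094 and 1058 CPM (log2 -0.91 ± 0.20, adjusted p = 0.0059). Fos was at 621 and 1352 CPM against 1747 and 1585 CPM (log2 -0.58 ± 0.25, adjusted p = 0.58). The 20 genes together summed to 5667 and 14226 CPM in Esm1 cells and 14803 and 17774 CPM in Esm1-zero cells. Library 1 of the Esm1 cells was far below library 2, and both lay below both Esm1-zero libraries. Mitochondrial shares, a sign of RNA quality, had medians of 2.62% and 2.52% in Esm1 cells and 2.56% and 2.66% in Esm1-zero cells. The part of dissociation in the other differences was not tested.

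**Figure D3:**
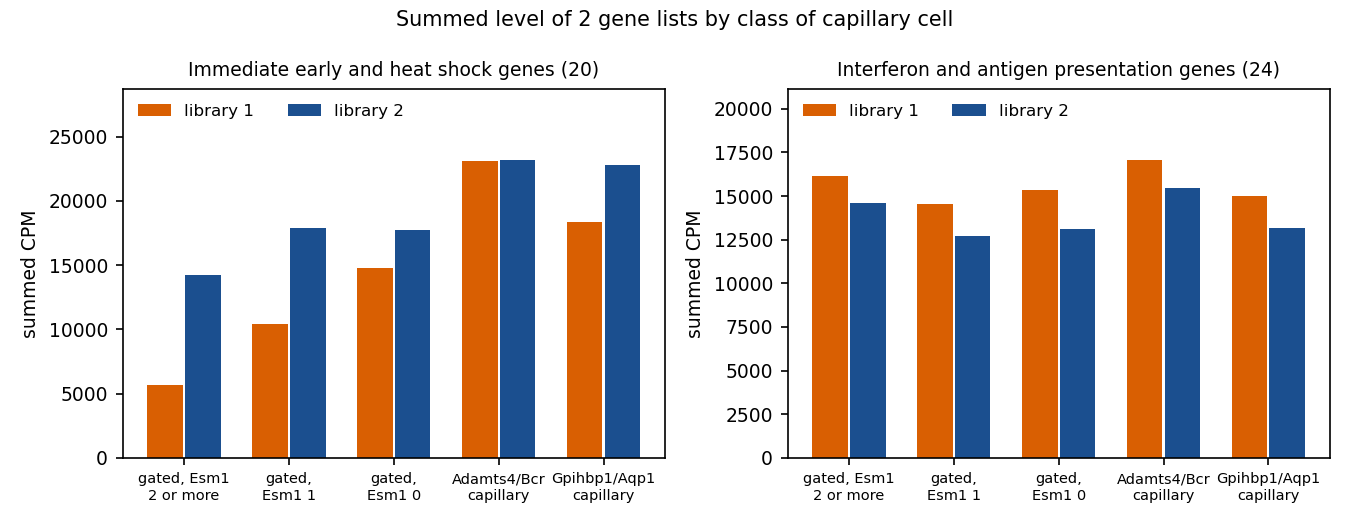
Summed CPM of 20 immediate early and heat shock genes (left) and 24 interferon and antigen presentation genes (right) in 5 classes of capillary cell, by library. The Esm1 cells hold the lowest immediate early sums of each library, 5667 and 14226 CPM, while the interferon sums of the 5 classes lie close together, at 16126 and 14573 CPM in Esm1 cells.

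Levels were also followed along the Esm1 UMIs of the gated cells, from 0 through 1 and 2 to 3 to 4 or more. Library 2 had 331, 88, 82 and 62 cells in these bins and library 1 had 72, 18, 10 and 8, so 3 bins of library 1 are thin. The genes followed were picked from those already called, and the upper bins are the Esm1 cells split again. A gap between these bins and the cells with 0 Esm1 UMIs thus follows from the choice of genes. In library 2, Fam167b went from 66.7 through 107 and 188 to 289 CPM, and in library 1 from 65.7 through 77.9 and 68.2 to 269 CPM. Hbegf went from 40.2 through 52.2 and 168 to 283 CPM in library 2. Both were higher with each bin of library 2. In library 1 neither was: Hbegf was at 42.3, 31.2, 102 and 119 CPM. Slc6a6 went from 264 through 122 and 91.0 to 51.4 CPM in library 2 and was at 0 in both upper bins of library 1. Kdr showed no such steps in library 2, at 1775, 2081, 2219.8 and 2167 CPM. Nor did Itih5, a named gene that rose, at 38.3, 29.0, 31.3 and 161 CPM. The cells with 1 Esm1 UMI, which entered neither class, lay between the Esm1-zero cells and the Esm1 cells in library 2 for Fam167b, Hbegf and Slc6a6. In library 1 those cells lay below the Esm1-zero cells for Hbegf.

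**Figure D4:**
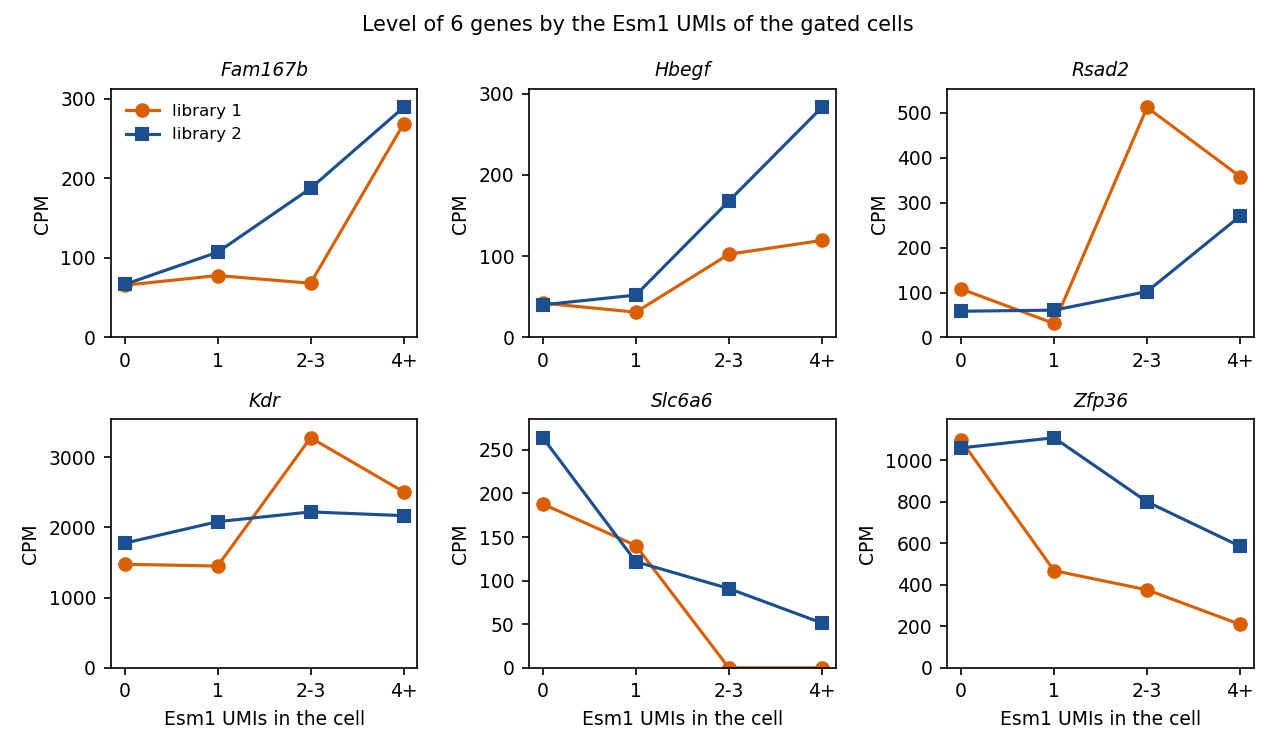
CPM of 6 genes (linear axes from 0) in gated cells binned by their Esm1 UMIs, by library. In library 2 Fam167b climbs from 66.7 to 289 CPM and Slc6a6 declines from 264 to 51.4 CPM across the bins.

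The same contrast was run in Adamts4/Bcr cells, which share no cell with the gate: 46 and 415 cells with at least 2 Esm1 UMIs against 112 and 785 with 0. This comparison was added after the first results were seen. There 99 of 7638 genes passed (1.3%), 61 higher (0.799%) and 38 lower (0.498%). Of 11 named genes that rose in gated cells, 8 passed there with the same sign, and of 12 that fell, 5 did: Slc6a6, Myof, Syt7, Itgb4 and Cmah. In cells of 2500 to 8000 UMIs 5 of the 8 still passed, without Rsad2, Slc16a1 and Ifi44, and all 5 that fell did. All 23 had the same sign, and the share of same-sign genes over all genes tested is not given here. Depth differed as in gated cells, with median totals of 4796 and 4866 UMIs with Esm1 and 3761.5 and 4079 without. The part of depth in the shared signs was not tested. The Adamts4/Bcr cells come from the same 2 libraries, so the comparison is the same contrast in other cells and not in other samples.

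Fam167b was at 134 and 141 CPM in Adamts4/Bcr cells with Esm1 and 64.9 and 44.6 CPM in those without (log2 1.53 ± 0.18, adjusted p = 6.3e-11). Akr1c14 was at 67.1 and 83.7 CPM against 34.8 and 20.01 CPM (log2 1.88 ± 0.22, adjusted p = 2.2e-11). The libraries of both genes did not overlap. The named risers that did not pass there were Ifit1 (log2 1.19 ± 0.40, adjusted p = 0.44), Itih5 (0.41 ± 0.34, 0.97) and Dmd (0.46 ± 0.30, 0.9). Kdr passed (log2 0.45 ± 0.12, adjusted p = 0.034), as did tip cell genes that had missed the threshold in gated cells: Ednrb (log2 0.91 ± 0.16, adjusted p = 3.2e-05), Pdgfb (0.61 ± 0.15, 0.016) and Rgcc (0.67 ± 0.14, 8.7e-04), a cell cycle regulator. In all, 4 of the 24 tip cell genes tested there rose and 1 fell, Igfbp3. Nrp1 passed as well (log2 0.58 ± 0.12, adjusted p = 9.9e-04). In cells of 2500 to 8000 UMIs Kdr (adjusted p = 0.27) and Rgcc (0.099) no longer passed. Of the 19 immediate early and heat shock genes, 0 passed in Adamts4/Bcr cells, with a median log2 difference of -0.05.

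Passing in 1 set and not in the other does not show a difference between the sets, so the difference itself was tested. It passed for 2 of 7638 genes (0.0262%), Igfbp5 and Hbb-bs. Igfbp5 was at 0 and 84.6 CPM against 0 and 25.2 CPM in Adamts4/Bcr cells (log2 1.74 ± 0.25), and the difference between the contrasts was 2.37 ± 0.42 on the log2 scale (adjusted p = 9.2e-04). In cells of 2500 to 8000 UMIs it was 0.48 (adjusted p = 1.0), with a contrast of 3.88 ± 0.30 in gated cells and 3.40 ± 0.34 in Adamts4/Bcr cells. Hbb-bs, a haemoglobin gene, had 74 UMIs in Esm1 cells, all in 1 cell of library 2.

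**Figure D5:**
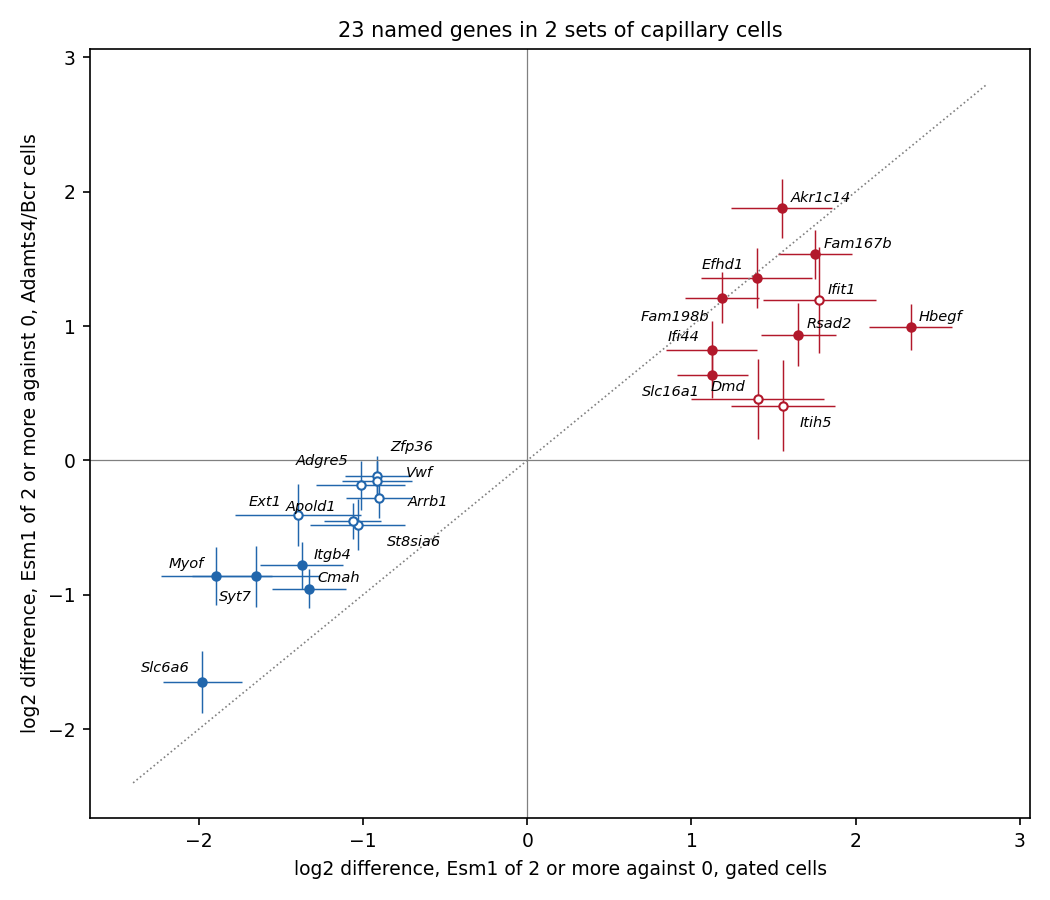
Fitted log2 difference ± SE between cells with at least 2 and with 0 Esm1 UMIs for 23 named genes, in gated cells (x) and Adamts4/Bcr cells (y); red genes rose and blue genes fell in gated cells, filled points passed in Adamts4/Bcr cells, and the dotted line marks equal differences. All 23 points share their sign on both axes, and 13 are filled. The share of same-sign genes over all genes tested is not given here.

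More genes passed against Adamts4/Bcr cells as a whole than against Esm1-zero cells. The Adamts4/Bcr sums were deeper, at 802509 and 6915357 UMIs against 212937 and 1095200, so such counts do not measure the size of the difference. Of 8572 genes, 627 passed (7.31%), 135 higher (1.57%) and 492 lower (5.74%). With no scaling factors 265 were higher and 308 lower, and the excess of lower genes shrank. Of the 19 immediate early and heat shock genes, 14 fell and 0 rose (median log2 -1.01), among them Fos, Jun, Junb, Egr1 and Hspa1a, whose near-identical copy Hspa1b also fell. Their summed level was 23139 and 23182 CPM in Adamts4/Bcr cells. Il6, the cytokine, was at 0 and 6.03 CPM in Esm1 cells and 128 and 128 CPM in Adamts4/Bcr cells (log2 -4.69 ± 0.43, adjusted p = 1.0e-24), and Tnfaip3, an inhibitor of NF-κB signalling, at 15.9 and 18.1 against 139.6 and 112 CPM (log2 -2.83 ± 0.33, adjusted p = 3.9e-15). The other named genes that fell were the small GTPases Rrad (log2 -2.52 ± 0.34) and Rab20 (-3.05 ± 0.46), with Gm16486 (-2.92 ± 0.40) and Fignl2 (-2.66 ± 0.40). Adamts4/Bcr cells of library 2 also carried 1112 CPM of epithelial and 246 CPM of fibroblast markers, against 1.25 and 22.4 CPM in library 1. The part of these in the differences was not tested.

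Of 14 Notch genes, 4 fell and 0 rose against Adamts4/Bcr cells, beside 5.74% of all genes that fell. The other 10 did not pass, and 5 of the 14 had a positive difference, beside 48.8% of all genes tested. Dll4 was at 318 and 217 CPM against 370.1 and 392 CPM (log2 -0.85 ± 0.17, adjusted p = 3.0e-05), and Nrarp, a Notch target and feedback regulator, at 31.8 and 60.3 against 142 and 142 CPM (log2 -1.43 ± 0.24, adjusted p = 3.0e-07). Jag1 (log2 -1.02 ± 0.25) and the target Hes1 (-0.88 ± 0.16) also fell. No library of Esm1 cells reached either library of Adamts4/Bcr cells for any of the 4. Vegfa, the VEGF ligand, fell too (log2 -1.74 ± 0.44, adjusted p = 0.0025), with Slc2a1, a glucose transporter, P4ha1, a collagen hydroxylase, and Bhlhe40, a transcription repressor, which made 4 of 15 hypoxia response genes that fell and 0 that rose. Of 21 interferon and antigen presentation genes, 1 rose and 5 fell (Isg15, Irf1, Iigp1, Irgm1 and Cd74).

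The tip cell list split, with 4 genes higher and 4 lower of 27, beside 1.57% and 5.74% of all genes. Kdr (log2 0.42 ± 0.13, adjusted p = 0.025), Pdgfb (0.92 ± 0.17, 2.1e-06), Ednrb (0.71 ± 0.19, 0.0035) and Apln rose, while Dll4, Mcam, Nid2 and Igfbp3 fell. Named genes that rose were Btnl9, a butyrophilin-like membrane protein, at 382 and 133 CPM against 1.25 and 14.3 CPM (log2 3.52 ± 0.29, adjusted p = 1.0e-16), Igfbp5, Itih5, Rsad2 and Itm2a. Btnl9 did not separate Esm1 cells from Esm1-zero cells (log2 0.24 ± 0.25, adjusted p = 0.92). With Esm1 of at least 2 UMIs on both sides, 382 of 7638 genes passed (5%), 48 higher (0.628%) and 334 lower (4.37%), and 207 did in cells of 2500 to 8000 UMIs.

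The most genes passed against Gpihbp1/Aqp1 cells, 1209 of 8572 (14.1%), 557 higher (6.5%) and 652 lower (7.61%). Haemoglobin genes summed to 3047 CPM in the Gpihbp1/Aqp1 cells of library 2, and leaving out cells with over 1% haemoglobin UMIs changed no call of the 12 named genes. Serpine2, a serpin that inhibits thrombin, was at 63.7 and 122 CPM against 3.32 and 4.31 CPM (log2 4.80 ± 0.35, adjusted p = 7.3e-41). Fam167b was at 8.31 and 11.7 CPM in these cells (log2 4.35 ± 0.25) and Efhd1 at 1.66 and 4.002 CPM (4.55 ± 0.41). Lrrc3b, Syt15 and Col13a1 completed the named genes that rose. None of the 6 overlapped between classes, which the naming rule favours by asking for large changes of 1 direction. Of 22 collagen and basement membrane genes, 9 rose and 3 fell, and of 8 IGF axis genes 5 rose, led by Igfbp5 and Igfbp4 (429.8 and 566 against 11.6 and 46.8 CPM, log2 3.79 ± 0.19), while the receptors Igf1r and Igf2r fell. Of 27 tip cell genes, 11 rose and 7 fell, with Kdr (log2 0.81 ± 0.13), Unc5b (0.57 ± 0.21), a netrin receptor, and Mcam (0.52 ± 0.17), an adhesion molecule, among those that rose and Angpt2 (-1.75 ± 0.45) among those that fell. Of 9 fenestral diaphragm and caveolae genes, Cavin3, Ehd4 and Mal rose, and the caveolar coat genes Cav1 (log2 -1.20 ± 0.15), Cav2, Cavin1, Cavin2 and Ehd2 fell.

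Capillary lipid handling genes were lower in Esm1 cells than in Gpihbp1/Aqp1 cells, with 10 of 15 falling and 1 rising (median log2 -1.09). Of all genes tested, 7.61% fell and 6.5% rose in this comparison. Cd36, a fatty acid transporter, was at 1974 and 1400.0 CPM against 3754 and 3755 CPM (log2 -1.29 ± 0.14, adjusted p = 4.1e-19), and Fabp4, a fatty acid chaperone, at 6479 and 7321 against 14199.5 and 17783 CPM (log2 -1.26 ± 0.12). Meox2 and Lpl had 0 UMIs in Esm1 cells and were at least 89.7-fold and 90.3-fold lower. Of the other named genes that fell, Lnx1 and Samd5 also had 0 UMIs (at least 29.0-fold and 24.2-fold lower), and Timp4, an inhibitor of matrix metalloproteases, was at 0 and 4.53 CPM against 915 and 746 CPM (log2 -7.49 ± 0.35, adjusted p = 1.6e-95). Cldn5 was at 0 and 13.6 CPM against 1440.2 and 868 CPM (log2 -6.32 ± 0.32, adjusted p = 1.7e-34), and Bmp6, a BMP ligand, at 31.8 and 4.53 against 184 and 157 CPM (log2 -4.48 ± 0.41). Nkx2-3, a homeobox factor known for intestinal endothelium, rose with 478 and 584 against 41.5 and 43.7 CPM (log2 3.69 ± 0.19, adjusted p = 6.3e-83) but did not separate Esm1 cells from Esm1-zero cells (log2 -0.32 ± 0.16, adjusted p = 0.59). Of these comparisons, the Adamts4/Bcr and Gpihbp1/Aqp1 ones are between cells that the gate genes themselves separate, and all 3 share the Esm1 cells.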

How the data were processed

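Single-cell 3' RNA libraries from sorted ileal endothelial cells were read as deposited by the authors: raw UMI counts for 31053 genes in each called cell. They were made with bcl2fastq 2.2 and Cell Ranger 3.1.0 on mm10, per the submitters' processing notes. The sources used here do not give the annotation.

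Members, gene lists and tests were chosen with earlier results of these data known. Of 7328 barcodes, 7045 passed the cell filters. Scrublet (scanpy 1.11.5) called 6 cells a library, too few in library 2 to count as having worked, so no doublet was removed. Venous, arterial and lymphatic cells needed at least 3, 3 and 5 UMIs of their gate genes.

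Counts were summed per library and class, since cells are not replicates. edgeR 4.0.16 (TMM scaling, filterByExpr with a minimum count of 10, glmQLFit robust, glmQLFTest) was fitted to the 10 sums of the 5 capillary classes with library as a block, leaving 4 residual degrees of freedom, without the genes of the rule. Adjusted p-values are Benjamini-Hochberg over all genes tested, with a threshold of 0.05. The contrast within Adamts4/Bcr cells used a fit of 8 sums. Differences are log2 fold changes ± SE. In the fit of 10 sums the median prior degrees of freedom were infinite, so the spread was shared across genes for the median gene. P-values and SEs are thus not measured on the agreement of the libraries. Against Esm1-zero cells, Jund had an SE of 0.15 at log2 differences of -1.47 in library 1 and -0.41 in library 2. The sums of the classes differ in depth, from 62819 to 6915357 UMIs, and reads of near-identical genes can be split. On simulated counts for the contrast with Esm1-zero cells (8052 genes), 13.4% of genes changed by 1 on the log2 scale, 69.5% of those changed by 2 and 0.0636% of unchanged genes were called. These counts were drawn as class sums, with the same spread for every gene and no single cell that dominates a gene. That spread was set larger than the common spread fitted to the real sums, and no difference between libraries was drawn. The shares hold for that setting and do not measure the rate of false calls in the real data.

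Named genes passed the threshold, reached 50 CPM on the higher side in each library and had 1 direction throughout; they were the 12 with the greatest log2 change each way against Esm1-zero cells and 6 each way in the other comparisons, with up to 4 passing members of each list. 1 named gene is not reported here. Settings tried were another depth window, thinning, cell filters, doublet scores, Esm1 limits, scalings, no count filter, no library block, DESeq2 1.42.0 and the removal of haemoglobin-rich cells. Promoters came from RefSeq by symbol, and the promoter genes and motifs were chosen after values were seen.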

Additional observations from a re-analysis of the deposited data

Results flagged for a closer look

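The Esm1 contrast differed between gated cells and Adamts4/Bcr cells, by a test of the difference itself, for 2 of 7638 genes. For Igfbp5 the difference was 2.37 ± 0.42 on the log2 scale (edgeR adjusted p = 9.2e-04), with a contrast of 1.74 ± 0.25 in Adamts4/Bcr cells. It was 2.38 (adjusted p = 0.0021) without cells over 1% haemoglobin UMIs and 0.48 (adjusted p = 1.0) in cells of 2500 to 8000 UMIs. Igfbp5 was at 0 UMIs in the Esm1-zero cells of library 1, and 18 Esm1 cells held its UMIs, 23.9% of them in 1 cell. For Hbb-bs the difference was 17.68 ± 1.29 (adjusted p = 1.9e-24), and all 74 UMIs in Esm1 cells lay in 1 cell of library 2. In the depth window it was 17.58 (adjusted p = 5.2e-12), and without haemoglobin-rich cells the gene could not be fitted.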

How the results depend on the processing

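Against Esm1-zero cells the 89 calls became 20 with cells thinned to 2000 UMIs, 51 with Esm1 of at least 1 UMI, 28 from the 4 sums compared alone, 13 with no replicate block (library left out of the model) and 14 with DESeq2. Against Adamts4/Bcr cells 627 became 274, 162 and 214 under thinning, no replicate block and DESeq2, and against Gpihbp1/Aqp1 cells 1209 became 648, 666 and 626. In cells of 2500 to 8000 UMIs the contrast within Adamts4/Bcr cells gave 59 calls in place of 99, and that with Adamts4/Bcr cells carrying Esm1 gave 207 in place of 382. The cause was not tested. The library is the block, as classes of 1 library share their source. Of 42 genes named or taken from lists against Esm1-zero cells, 9 stayed past the threshold with no replicate block, 10 of 33 with an adjusted p did with DESeq2, 14 of 37 after thinning, 27 of 37 in the depth window and 37 of 38 without haemoglobin-rich cells. For Apln and Adamts5 the log2 differences of library 2 alone were 3.47 and 3.77. Those of library 1, -3.38 and -3.38, are 0 against 2 UMIs, are set by the 1 CPM added and lie under the floor of 3 counts. With Esm1 of at least 3 UMIs the cell with haemoglobin was gone, and Hbb-bs, Hba-a2, Hbb-bt and Hba-a1 had log2 differences of -0.11, -0.11, -0.11 and -3.30. The share of gated cells counted as Esm1 cells was 10.2% and 16.5% at 3 UMIs or more, 33.3% and 41.2% at 1 or more, and 13.8% in library 2 after thinning. No test was possible within 1 library, which leaves no residual degrees of freedom. Library 1 held 18 Esm1 cells, so 1 UMI there is worth more CPM than in library 2, and low genes at 0 in it were below what this depth can show.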
